A study of Mus musculus with 158 samples.

Results

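Pool 8 of the screen was a set of 52 short hairpin RNAs (shRNAs) against 21 mouse genes, out of 1000 targeting hairpins against 285 genes in all pools. Its members were the hairpins that the deposited tables assign to pool 8, read in the libraries made from cells carrying that pool. Together, 12 samples gave 9 libraries, 3 in each of 3 arms, once the repeat run of replicate A of each arm had been summed with its first run. All groups were PDA530 Met cells, 1 mouse pancreatic cancer line derived from a liver metastasis. In every group the cells had been transduced at a multiplicity of infection of 0.3 and kept for 4 days in puromycin at 3 µg/ml. The day 0 arm was cells taken before injection. The lungs arm was tumours 28 days after tail-vein injection, 3 mice for the pool, with all tumours of a mouse in 1 library, so that a lung value averages over the tumours of that mouse. The culture arm was cells carrying pool 8 and cells carrying pool 9, grown for 28 days and read in shared libraries. The question that the labels give is which hairpins change in abundance during lung colonisation and which do so during growth in culture.

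In a pooled shRNA screen each cell carries an integrated hairpin that lowers the mRNA of its target, and the hairpin itself serves as the barcode of that cell's descendants. A hairpin's share of the reads then follows the share of cells that descend from the cells it entered. Loss of a hairpin is the usual readout for a gene that cells need, and gain for a gene that restrains growth, but a hairpin can also act on unintended mRNAs. For that reason such screens use several hairpins per gene and compare them. In pool 8, 3 genes had 1 hairpin, 9 had 2, 5 had 3 and 4 had 4. The files hold hairpin identifiers and target names, and the hairpin sequences were not used here.

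Reads were recovered from the deposited normalised values, and a hairpin's level is given below as its share of all pool 8 targeting reads in that library, in percent, always in the order of replicates A, B and C. Library depth ran from 6322500 to 19655148 reads, of which 2578026 to 13600540 were pool 8 reads. Pool 8 hairpins held 69.2% to 69.6% of the reads at day 0, 69.5% to 76.1% in lungs and 30.3% to 36.2% in culture, where pool 9 held 41.9% to 48.2%. All 52 hairpins were read in all 9 libraries, and all passed the filter of a mean of 10 reads. The 95% counting interval (Wilson) of a share based on at least 1000 reads was at most 5.99% of the value to either side. It covers counting error only, because amplification was by PCR without molecular identifiers.

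The arms differed in how far their libraries stood apart. Between the highest and the lowest of the 3 libraries, 1 of 52 hairpins differed by more than 2-fold at day 0, 7 did in culture and 25 did in lungs. The median of that ratio was 1.09 at day 0, 1.32 in culture and 1.93 in lungs. Pairs of day 0 libraries differed by a median of 0.0462 to 0.0886 on the log2 scale, below the 0.124 between the 2 runs of day 0 replicate A. Nothing in the labels says that the day 0 libraries came from separate cultures, so the p-values below measure the spread between these libraries, which at day 0 may be technical.

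The day 0 population was fairly even and became less so in both later arms. The effective number of hairpins, the exponential of the Shannon entropy of the shares, was 37.2 ± 0.378 (SD, n = 3) at day 0, 32.8 ± 0.337 in culture and 31.6 ± 1.70 in lungs. Each library of either later arm was below each day 0 library, and both differences had an exact two-sided permutation p of 0.1, the smallest that 3 against 3 allows. Lungs and culture overlapped (exact permutation p = 0.4). By the inverse Simpson index, which gives abundant hairpins more weight, they did not, with 22.1, 25.1 and 21.9 in lungs and 27.0, 26.5 and 26.4 in culture (log2 difference -0.21, exact permutation p = 0.1). It took 12 hairpins to reach 50% of the pool 8 reads in each day 0 library, 10 in each culture library and 9 to 11 in lung libraries. The hairpins with the highest mean share were Tnr TRCN0000110746 at day 0 (5.88%) and in culture (6.69%), and Tfpi2 TRCN0000080032 in lungs (12.3%), the only pool 8 hairpin above 10% in any of the 9 libraries.

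Changes were tested with limma on log2(CPM + 1), where CPM is the read count scaled to the targeting reads of the pool in that library, with Benjamini-Hochberg adjustment over the hairpins of all pools at 0.05. Between lungs and day 0, 20 of 52 hairpins passed, 5 higher and 15 lower in lungs. Over all pools 38.2% passed, 9.32% higher and 28.8% lower, so the count for pool 8 was close to the background. The median log2 change was -0.11 for pool 8 and -0.73 for all 891 hairpins tested. Both medians depended on the scaling, and with the DESeq2 test they were 0.18 and 0.09. Between culture and day 0, 37 hairpins passed, 15 higher and 22 lower in culture, against 65.1% of all hairpins (17.2% higher and 47.8% lower). The medians were -0.26 and -0.64. With control reads as the denominator they were -0.82 and -0.99, and with the DESeq2 test -0.05 and 0.08. Between lungs and culture, 17 hairpins passed, 7 higher and 10 lower in lungs, against 27.2% of all hairpins (12.1% and 15.1%). The medians there were -0.07 and -0.26. With control reads as the denominator they were 0.68 and 0.30, and with the DESeq2 test 0.0061 and 0.076. On simulated reads with each arm's own spread, unchanged hairpins made up more of the calls in both comparisons with lungs than the threshold allows. Calls in these comparisons are therefore less certain than their adjusted p.

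The 3 shares of an arm often lay wholly above or below those of another. Lungs did not overlap day 0 for 25 hairpins, 9 above and 16 below, against 59.9% of all hairpins (14.1% above and 45.8% below). Culture did not overlap day 0 for 42, 17 above and 25 below, against 69.4% (18.8% and 50.6%). Lungs did not overlap culture for 22, 11 above and 11 below, against 41.1% (18.1% and 22.9%).

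The split by direction moved with the scaling, in pool 8 and over all pools. For lungs against day 0, control reads as the denominator gave 6 higher and 10 lower pool 8 hairpins (all pools 12.1% and 14.1%), the deposited values 6 and 11 (8.75% and 20%), TMM factors 6 and 12 (14.7% and 19.1%) and DESeq2 size factors 5 and 12 (15.3% and 18.3%). The count tests gave 6 and 8 with edgeR (15.3% and 16.0%) and 9 and 14 with DESeq2 (24.3% and 21.6%). For culture against day 0, control reads gave 6 and 33 (10.6% and 55.2%), the deposited values 12 and 30 (13.8% and 53.0%), TMM factors 18 and 19 (28.8% and 31.9%) and DESeq2 size factors 18 and 18 (29.8% each way). There edgeR gave 19 and 17 (29.5% and 29.0%) and DESeq2 19 and 21 (33.0% and 30.6%). For lungs against culture, control reads gave 18 and 3 (23.8% and 5.06%), the deposited values 13 and 6 (15.4% and 10.0%), TMM factors 7 and 7 (11.6% and 13.3%) and DESeq2 size factors 7 and 8 (12.7% and 12.9%). The splits were 8 and 7 with edgeR (12.7% and 12.3%) and 11 and 8 with DESeq2 (18.8% and 14.8%).

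The control denominator shifts all pool 8 hairpins alike, and in culture libraries it also counts the controls of pool 9 cells. On the log2 scale the shift was -0.56 where culture was set against day 0, and 0.75 where lungs were set against culture, so a change smaller than it turns its sign by construction. A call lost with control reads in a comparison with culture, as given below for single hairpins, is lost under that common shift.

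Leaving out day 0 replicate A, B or C left 13 calls each time for lungs against day 0. Leaving out culture replicate C left 11 for lungs against culture, and fitting the 3 arms together left 23 for culture against day 0 (399 of 945 over all pools, against 615 when 2 arms were fitted). Under all 20 alternative settings, 10 of the 20 lung calls, 18 of the 37 culture calls and 7 of the 17 calls between lungs and culture passed in the same direction. Each other call was lost under at least 1 setting. The same count was not made over all pools. No filter, a filter of a mean of 100 reads and a pseudocount of 10 each returned the main calls in all 3 comparisons. The 10 in lungs were Tfpi2 TRCN0000080032 and Dusp5 TRCN0000080888 and TRCN0000080889, which rose, and Nt5e TRCN0000080816, Wbscr17 TRCN0000093902, Uty TRCN0000095071, Timeless TRCN0000097985, Mall TRCN0000100634, Fyb TRCN0000109751 and Tns4 TRCN0000121427, which fell. The 18 in culture were Tfpi2 TRCN0000080031, Serpinb5 TRCN0000080499, Sesn2 TRCN0000087791, Coro1c TRCN0000090985, Cdh23 TRCN0000094663 and Fyb TRCN0000109751, which rose, and Timp1 TRCN0000080039, Nt5e TRCN0000080816, Dusp5 TRCN0000080890, Ttn TRCN0000088747, Wbscr17 TRCN0000093899 and TRCN0000093902, Uty TRCN0000095072, Timeless TRCN0000097985, Mall TRCN0000100634, Sema4b TRCN0000112293 and Tns4 TRCN0000121427 and TRCN0000121428, which fell. The 7 between lungs and culture were Tfpi2 TRCN0000080032, Dusp5 TRCN0000080889, Ttn TRCN0000088747 and Tns4 TRCN0000121428, higher in lungs, and Sesn2 TRCN0000087791, Coro1c TRCN0000090985 and Fyb TRCN0000109751, lower in lungs. The fit of 3 arms together ended the culture calls of Serpinb5 TRCN0000080500 and TRCN0000080502, Nt5e TRCN0000080814, Dusp5 TRCN0000080889, Ttn TRCN0000088746, Coro1c TRCN0000090983, Wbscr17 TRCN0000093901, Cdh23 TRCN0000094662, Sema5b TRCN0000094863, Uty TRCN0000095069, Mall TRCN0000100633, Fyb TRCN0000109753, Tnr TRCN0000110747 and Tns4 TRCN0000121429 (adjusted p from 0.0547 to 0.507).

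Matrix proteins and members of protease inhibitor families were the targets of 12 hairpins, of which 1 rose, 2 fell and 9 did not pass in lungs against day 0, while 5 rose and 2 fell in culture against day 0 (over all pools 9.32% rose and 28.8% fell in lungs, and 17.2% rose and 47.8% fell in culture). Tfpi2, a Kunitz-type serine protease inhibitor of the extracellular matrix, gave the most abundant lung hairpin, TRCN0000080032, with 5.70%, 5.76% and 6.02% at day 0, 5.40%, 5.36% and 6.60% in culture and 12.9%, 11.7% and 12.3% in lungs. Every mouse was above every day 0 and culture library, while culture and day 0 overlapped. The hairpin rose 2.11-fold in lungs against day 0 (log2 change 1.08, SE 0.07, adjusted p = 5.56e-05) and stood 2.13-fold above culture (log2 change 1.09, SE 0.15, adjusted p = 7.15e-05). The other Tfpi2 hairpin, TRCN0000080031, held 1.39%, 1.36% and 1.26% at day 0, 2.50%, 2.74% and 2.64% in culture and 1.55%, 3.30% and 1.15% in lungs. It rose in culture (log2 change 0.98, SE 0.10, adjusted p = 3.28e-05) in all 3 libraries, whereas its lung shares overlapped day 0 and did not pass (adjusted p = 0.395).

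Timp1 encodes a secreted inhibitor of matrix metalloproteinases. Its hairpin TRCN0000080039 held 4.04%, 4.04% and 4.35% at day 0, 1.75%, 1.55% and 1.78% in culture and 3.31%, 2.57% and 2.53% in lungs, so that the 3 arms did not overlap. It fell in culture (log2 change -1.29, SE 0.09, adjusted p = 2.24e-06). In lungs it also passed (log2 change -0.57, SE 0.18, adjusted p = 0.0371), but not with control reads as the denominator (adjusted p = 0.246), TMM factors (0.164), the count tests (0.138 with DESeq2 and 0.215 with edgeR) or a replicate block (0.0869), nor without any 1 day 0 library (0.116 to 0.144) or without lungs replicate B (0.0624). The Timp1 hairpins TRCN0000080041 and TRCN0000080042 passed in neither arm, with day 0 shares of 2.18%, 2.15% and 2.26% and of 1.10%, 1.16% and 1.06%, and lung shares of 1.86%, 1.85% and 3.27% and of 0.926%, 1.39% and 0.972%.

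Serpinb5 encodes maspin, a member of the serpin family found mostly inside cells. All 3 of its hairpins passed as higher in culture against day 0, with log2 changes of 0.86 for TRCN0000080499, 0.21 for TRCN0000080500 and 0.39 for TRCN0000080502. Those of TRCN0000080500 and TRCN0000080502 were smaller than the shift of the control denominator, with which they were -0.35 (adjusted p = 0.00124) and -0.17 (adjusted p = 0.370). With the deposited values the sign turned for TRCN0000080500 (-0.14, adjusted p = 0.0666), and TRCN0000080502 was at 0.042 (adjusted p = 0.81). Hairpin TRCN0000080499 held 2.03%, 2.20% and 2.21% at day 0, 3.90%, 3.99% and 3.76% in culture and 2.52%, 2.31% and 3.00% in lungs, with culture above both other arms. Lungs against culture passed for it (log2 change -0.58, SE 0.19, adjusted p = 0.033). That call was lost with control reads (log2 change 0.17, adjusted p = 0.701) and with the deposited values (-0.14, adjusted p = 0.69). It was also lost with TMM factors (0.0827), edgeR (0.117), the DESeq2 test (0.0867) and a replicate block (0.083). Nor did it pass without lungs replicate A (0.0553) or without any 1 culture library (0.107 to 0.143). In culture, TRCN0000080500 did not pass with a replicate block (adjusted p = 0.0796) or without any 1 day 0 library (0.0746 to 0.116), and TRCN0000080502 did not pass without day 0 replicate C (0.0511). No Serpinb5 hairpin passed in lungs against day 0, where TRCN0000080502 was read at 0.462%, 1.98% and 1.70%, replicate A being the low one.

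Tnr, the matrix glycoprotein tenascin-R, known mainly from the nervous system, had 4 hairpins that did not move together. Hairpin TRCN0000110748 held 2.51%, 2.33% and 2.43% at day 0, 5.02%, 4.04% and 4.05% in culture and 1.31%, 1.69% and 1.45% in lungs. Its 3 arms did not overlap, with culture above and lungs below day 0. It rose in culture (log2 change 0.84, SE 0.10, adjusted p = 9.88e-05) and was lower in lungs than in culture (log2 change -1.56, SE 0.25, adjusted p = 0.000227). With control reads as the denominator neither passed (0.118 and 0.0598). The drop against day 0 (log2 change -0.72, SE 0.20, adjusted p = 0.0241) did not pass with control reads (0.126), TMM factors (0.101), edgeR (0.0694) or a replicate block (0.0688), or without any 1 day 0 library (0.0656 to 0.0765). Hairpin TRCN0000110747 fell in culture (log2 change -0.61, SE 0.10, adjusted p = 0.000504) and did not pass in lungs. The most abundant day 0 hairpin, TRCN0000110746, held 5.80%, 5.83% and 6.00% at day 0 and 7.83%, 4.38% and 5.70% in lungs and passed in neither arm. Lung shares of TRCN0000110745 were 5.05%, 0.807% and 3.47%, against 1.78%, 1.83% and 1.87% at day 0, with mouse B below day 0 and mice A and C above it.

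Cell-surface adhesion and guidance receptors were the targets of 6 hairpins, of which 1 fell and 5 did not pass in lungs, while 1 rose and 3 fell in culture (all pools 9.32% and 28.8% in lungs, 17.2% and 47.8% in culture). Cdh23 is the cadherin of the tip links of inner-ear hair cells. Its hairpin TRCN0000094663 held 3.06%, 3.04% and 3.36% at day 0, 5.59%, 5.87% and 5.95% in culture and 2.39%, 3.09% and 2.96% in lungs. Culture stood above both other arms, which overlapped. It rose in culture (log2 change 0.88, SE 0.07, adjusted p = 6.49e-06) and was lower in lungs than in culture (log2 change -1.05, SE 0.19, adjusted p = 0.000652). The difference between lungs and culture did not pass with control reads as the denominator (log2 change -0.30, adjusted p = 0.472) or with the deposited values (-0.61, adjusted p = 0.0686). Hairpin TRCN0000094662 was nearly constant at day 0 (0.492%, 0.502% and 0.495%) and fell in culture to 0.311%, 0.184% and 0.143% (log2 change -1.30, SE 0.30, adjusted p = 0.00491). Its lung shares were 0.270%, 0.575% and 2.67%, the high value coming from mouse C alone, and lungs against day 0 did not pass (adjusted p = 0.556). Hairpin TRCN0000094661 passed in no comparison.

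Sema4b and Sema5b encode transmembrane semaphorins, a family of axon guidance and cell contact signals. The single Sema4b hairpin, TRCN0000112293, held 4.01%, 3.99% and 4.07% at day 0, 1.30%, 1.48% and 2.05% in culture and 1.57%, 2.93% and 2.26% in lungs. All 6 later libraries were below day 0. It fell in culture (log2 change -1.35, SE 0.16, adjusted p = 9.02e-05) and in lungs (log2 change -0.88, SE 0.24, adjusted p = 0.0222). The lung call was lost with control reads as the denominator (0.116), the deposited values (0.0527) and edgeR (0.0508). Sema5b TRCN0000094863 was lower in culture (log2 change -0.52, SE 0.18, adjusted p = 0.0296), a call lost with TMM factors (0.116), with a replicate block (0.0588) and without any 1 day 0 library (0.0862 to 0.125). Sema5b TRCN0000094862 was the rarest member, with 81, 89 and 454 reads at day 0, 15, 53 and 1478 in culture, and 77, 265 and 61 in lungs. Its shares differed by 13.6-fold within day 0 and by 229-fold within culture, so that no change was detectable.

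Signalling and metabolic genes were the targets of 10 hairpins, of which 2 rose and 5 fell in lungs, while 3 rose and 4 fell in culture (all pools 9.32% and 28.8% in lungs, 17.2% and 47.8% in culture). They held the largest rise of pool 8 in lungs. Dusp5 is a nuclear phosphatase that inactivates the kinase ERK, and it is itself induced by ERK signalling. Hairpin TRCN0000080889 held 0.737%, 0.683% and 0.622% at day 0, 1.35%, 1.28% and 1.02% in culture and 6.84%, 6.86% and 2.15% in lungs. Each lung library was above each culture library, and each culture library above each day 0 library. The rise was 6.85-fold in lungs (log2 change 2.78, SE 0.44, adjusted p = 0.00243) and 1.77-fold in culture (log2 change 0.83, SE 0.15, adjusted p = 0.000958), and lungs exceeded culture (log2 change 1.95, SE 0.40, adjusted p = 0.00293). The culture rise did not pass with control reads as the denominator (log2 change 0.27, adjusted p = 0.245). Hairpin TRCN0000080888 held 0.857%, 0.819% and 0.731% at day 0, 0.845%, 0.862% and 1.30% in culture and 2.03%, 2.62% and 1.35% in lungs. It rose in lungs (log2 change 1.27, SE 0.28, adjusted p = 0.00983), where every mouse was above every other library, and did not pass in culture (0.191). Lungs exceeded culture for it (log2 change 0.97, SE 0.35, adjusted p = 0.046), a call that was lost with a replicate block (0.132), without lungs replicate A or B (0.0724 and 0.128) or without any 1 culture library (0.0502 to 0.162).

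The third Dusp5 hairpin went the other way. Hairpin TRCN0000080890 held 0.620%, 0.638% and 0.533% at day 0, 0.0734%, 0.174% and 0.107% in culture and 0.257%, 0.0630% and 0.0325% in lungs, all 6 later libraries being below day 0. It fell in lungs (log2 change -2.88, SE 0.73, adjusted p = 0.0171) and in culture (log2 change -2.42, SE 0.32, adjusted p = 0.00021). The lung call was lost with edgeR (log2 change -2.12, adjusted p = 0.0708) and without lungs replicate B (-2.70, adjusted p = 0.0741). The log2 change was -3.71 without lungs replicate A and -2.22 without replicate C. Dusp5 was therefore 1 of 2 genes with hairpins called in both directions in lungs.

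Fyb, an adaptor protein best known from T cell receptor signalling to integrins, held the widest difference between lungs and culture. Hairpin TRCN0000109751 held 2.20%, 2.19% and 1.95% at day 0, 3.75%, 5.04% and 4.10% in culture and 0.202%, 0.360% and 0.189% in lungs. All 3 culture libraries were above day 0 and all 3 lung libraries below it. The hairpin rose 2.02-fold in culture (log2 change 1.01, SE 0.12, adjusted p = 9.58e-05) and fell 8.80-fold in lungs (log2 change -3.14, SE 0.33, adjusted p = 0.00036). The direct test of lungs against culture gave a 17.8-fold lower share in lungs (log2 change -4.15, SE 0.35, adjusted p = 3.55e-07). This call and both others of the hairpin passed under all 20 alternative settings.

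Of the other Fyb hairpins, 1 was also lower in lungs, by a smaller change, and the other two passed in no comparison with lungs. Hairpin TRCN0000109754 held 4.59%, 4.55% and 4.45% at day 0, 4.60%, 3.97% and 4.43% in culture and 2.15%, 3.64% and 2.96% in lungs, the lung values being below all others. It passed in lungs against day 0 (log2 change -0.67, SE 0.22, adjusted p = 0.0434). That call was lost with control reads as the denominator (0.253), the deposited values (0.12), TMM factors (0.1), DESeq2 size factors (0.0759) and edgeR (0.127). It was also lost without any 1 day 0 library (0.101 to 0.114) or without lungs replicate C (0.0675). The hairpin passed against culture too (log2 change -0.60, SE 0.21, adjusted p = 0.0406). That second call was lost with control reads (0.741), the deposited values (0.661), TMM factors (0.0577), edgeR (0.0845) and a replicate block (0.155). It was also lost without lungs replicate A (0.126) or without any 1 culture library (0.0736 to 0.155). Hairpin TRCN0000109753, at 0.0527%, 0.0601% and 0.0647% at day 0, fell in culture (log2 change -1.03, SE 0.23, adjusted p = 0.00369) and did not pass in lungs (0.621). Hairpin TRCN0000109752 was above day 0 in all 3 mice (1.01%, 0.742% and 0.604% against 0.540%, 0.571% and 0.445%) but did not pass (0.194).

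Nt5e encodes the ecto-nucleotidase that makes extracellular adenosine from AMP. Both of its hairpins fell in both later arms. Hairpin TRCN0000080816 held 0.882%, 0.870% and 0.891% at day 0, 0.297%, 0.0707% and 0.0872% in culture and 0.105%, 0.340% and 0.254% in lungs, and fell in lungs (log2 change -2.08, SE 0.50, adjusted p = 0.0133) and in culture (log2 change -2.85, SE 0.49, adjusted p = 0.000958; log2 change -3.49 without culture replicate A). The rarer hairpin TRCN0000080814 held 0.0740%, 0.0828% and 0.0700% at day 0, 0.0306%, 0.0204% and 0.0235% in culture and 0.00548%, 0.0403% and 0.010% in lungs. No later library reached day 0 for either hairpin. For TRCN0000080814 the lung change (log2 change -2.52, SE 0.70, adjusted p = 0.0247) did not pass with edgeR (0.0625) or without lungs replicate A (log2 change -1.90, adjusted p = 0.0676) or replicate C (0.0793), and was -3.33 without replicate B, while the culture change (log2 change -1.62, SE 0.24, adjusted p = 0.000338) passed with each library left out in turn. Nt5e was the only 1 of 18 genes with at least 2 hairpins whose hairpins all passed in 1 direction in lungs against day 0. Over all pools this held for 4.29% of such genes.

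Sesn2, a stress-induced inhibitor of mTOR signalling, had 1 hairpin in pool 8. Hairpin TRCN0000087791 held 0.391%, 0.339% and 0.389% at day 0, 1.88%, 1.42% and 1.73% in culture and 0.430%, 0.704% and 0.278% in lungs. Every culture library was above every other library, and lungs overlapped day 0. It rose 4.47-fold in culture (log2 change 2.16, SE 0.16, adjusted p = 3.39e-06) and was lower in lungs than in culture (log2 change -1.92, SE 0.39, adjusted p = 0.00167). Against day 0 the lung change did not pass (0.702).

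Genes of the cytoskeleton and of membrane traffic were the targets of 11 hairpins, of which 1 rose and 2 fell in lungs, while 4 rose and 6 fell in culture (all pools 9.32% and 28.8% in lungs, 17.2% and 47.8% in culture). Tns4 is a tensin of focal adhesions. Hairpin TRCN0000121428 held 1.90%, 1.96% and 2.12% at day 0, 0.526%, 0.506% and 0.342% in culture and 1.63%, 2.60% and 3.54% in lungs. Culture was below both other arms, which overlapped. It fell in culture (log2 change -2.15, SE 0.17, adjusted p = 8.3e-06) and was 5.49-fold higher in lungs than in culture (log2 change 2.46, SE 0.35, adjusted p = 9.56e-05), while lungs against day 0 did not pass (0.43). Hairpin TRCN0000121427 fell in both arms, from 3.16%, 3.11% and 3.31% to 0.772%, 0.846% and 0.909% in culture (log2 change -1.93, SE 0.10, adjusted p = 2.95e-07) and 0.804%, 0.379% and 0.952% in lungs (log2 change -2.27, SE 0.35, adjusted p = 0.00231). The hairpin TRCN0000121429 rose slightly in culture (log2 change 0.36, SE 0.08, adjusted p = 0.00402), by less than the shift of the control denominator. With the deposited values the rise was 0.014 (adjusted p = 0.914). Its share was lower in lungs than in culture (log2 change -0.60, adjusted p = 0.0303). That call was lost with control reads (0.736), the deposited values (0.673), TMM factors (0.0817), edgeR (0.116), the DESeq2 test (0.0988) and a replicate block (0.109). It was also lost with any 1 of 5 libraries left out (lungs replicates A and B and each culture library, 0.0506 to 0.176).

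Ttn encodes titin, the giant spring protein of the sarcomere. Hairpin TRCN0000088747 held 1.38%, 1.37% and 1.31% at day 0, 0.954%, 0.726% and 0.577% in culture and 2.90%, 2.22% and 2.03% in lungs. All 3 culture libraries were below day 0 and all 3 lung libraries above it. It rose in lungs (log2 change 0.80, SE 0.22, adjusted p = 0.0217), fell in culture (log2 change -0.88, SE 0.17, adjusted p = 0.00218) and was higher in lungs than in culture (log2 change 1.68, SE 0.33, adjusted p = 0.00106). Without any 1 day 0 library the lung rise did not pass (0.0584 to 0.0688). The other hairpin, TRCN0000088746, held 1.36%, 1.38% and 1.39% at day 0, 1.09%, 1.11% and 0.930% in culture and 2.97%, 2.53% and 1.13% in lungs. It fell in culture (log2 change -0.40, SE 0.10, adjusted p = 0.00772) and did not pass in lungs (0.248). The culture call was lost with TMM factors (0.13), DESeq2 size factors (0.161), the DESeq2 test (0.173) and edgeR (0.15).

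Coro1c is a coronin that binds actin filaments. Its hairpin TRCN0000090985 held 1.41%, 1.38% and 1.42% at day 0, 6.43%, 6.42% and 5.72% in culture and 1.77%, 2.10% and 1.62% in lungs. It rose 4.41-fold in culture (log2 change 2.14, SE 0.08, adjusted p = 3e-08) and was lower in lungs than in culture (log2 change -1.77, SE 0.19, adjusted p = 4.32e-06). Each mouse was above day 0, but the lung change did not pass (0.194). The other Coro1c hairpin, TRCN0000090983, fell in culture (log2 change -0.65, SE 0.10, adjusted p = 0.000454). Ehbp1, which links endocytic traffic to actin, had 1 hairpin, TRCN0000090705, that rose in culture (log2 change 0.83, SE 0.19, adjusted p = 0.00414), not so with control reads as the denominator (0.163), and neither of its hairpins passed in lungs.

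Mall, a proteolipid of membrane rafts, had hairpins called in opposite directions in culture. Hairpin TRCN0000100634 held 2.59%, 2.53% and 2.51% at day 0, 0.434%, 0.620% and 0.637% in culture and 0.979%, 1.12% and 0.471% in lungs. It fell in culture (log2 change -2.19, SE 0.15, adjusted p = 2.98e-06) and in lungs (log2 change -1.67, SE 0.34, adjusted p = 0.00703), and all 6 later libraries were below day 0. Hairpin TRCN0000100633 rose in culture from 0.359%, 0.377% and 0.306% to 0.965%, 0.840% and 0.554% (log2 change 1.15, SE 0.25, adjusted p = 0.00369), a call lost with control reads as the denominator (0.116). In lungs it was at 0.219%, 0.734% and 0.187%, with mouse B above day 0 and mice A and C below it.

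Nuclear proteins were the targets of 9 hairpins, of which 3 fell and 6 did not pass in lungs, while 2 rose and 3 fell in culture (all pools 9.32% and 28.8% in lungs, 17.2% and 47.8% in culture). Timeless, a component of the replication fork protection complex, had 1 hairpin in pool 8, TRCN0000097985, with 1.87%, 1.86% and 2.03% at day 0, 0.316%, 0.253% and 0.123% in culture and 0.478%, 0.277% and 0.495% in lungs. All 6 later libraries were below day 0, with culture lowest in mean. The fall was 8.94-fold in culture (log2 change -3.16, SE 0.33, adjusted p = 4.21e-05), the lowest change of any pool 8 hairpin there, and 4.76-fold in lungs (log2 change -2.25, SE 0.30, adjusted p = 0.00104). The difference between lungs and culture did not pass (0.312).

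Uty is the Y-linked paralogue of the histone demethylase Utx. None of its 4 hairpins had a mean above day 0 in either arm. Hairpin TRCN0000095071 held 2.30%, 2.40% and 2.12% at day 0, 2.06%, 1.89% and 1.42% in culture and 0.733%, 0.735% and 0.438% in lungs. Lungs stood below both other arms. It fell in lungs (log2 change -1.88, SE 0.27, adjusted p = 0.00134). Its share was lower in lungs than in culture (log2 change -1.52, SE 0.34, adjusted p = 0.00293, or 0.0621 with control reads). Culture against day 0 did not pass (0.0586), but passed as lower with a replicate block (0.0267). Hairpin TRCN0000095072 held 0.141%, 0.138% and 0.111% at day 0, 0.0488%, 0.0654% and 0.0366% in culture and 0.0484%, 0.0532% and 0.0340% in lungs. It fell in culture (log2 change -1.40, SE 0.24, adjusted p = 0.000965) and in lungs (log2 change -1.54, SE 0.39, adjusted p = 0.0171), the lung call not holding with a replicate block (0.0578) or without any 1 day 0 library (0.0555 to 0.0848). Hairpin TRCN0000095069 was lower in culture (log2 change -0.37, SE 0.08, adjusted p = 0.00394), not so with TMM factors (0.116). The fourth, TRCN0000095070, passed in no comparison.

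Kdm5a, a histone demethylase, and Zfp64, a zinc-finger transcription factor, had no call in lungs against day 0. Kdm5a TRCN0000113534 held 3.38%, 3.45% and 3.58% at day 0, 6.04%, 6.21% and 4.99% in culture and 3.36%, 3.97% and 7.99% in lungs. It rose in culture (log2 change 0.72, SE 0.09, adjusted p = 0.000169), not so with control reads as the denominator (0.335), and the lung mean rested on mouse C. The other Kdm5a hairpin, TRCN0000113533, was rare, at 0.00787%, 0.0115% and 0.00998% at day 0, and passed nowhere. Zfp64 TRCN0000095904 held 1.08%, 1.11% and 1.00% at day 0, 1.71%, 1.65% and 1.96% in culture and 1.62%, 1.52% and 1.63% in lungs. All 6 later libraries were above day 0, and culture passed (log2 change 0.73, SE 0.10, adjusted p = 0.000278), but not with control reads as the denominator (0.150). Lungs against day 0 missed the threshold (0.0568) and passed with TMM factors (0.0256). Zfp64 TRCN0000095908 had the widest spread between mice of all pool 8 hairpins, with 0.710%, 0.103% and 0.0608% against 0.288%, 0.268% and 0.235% at day 0.

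Wbscr17, listed by RefSeq as Galnt17, belongs to the GalNAc-transferase family that starts mucin-type O-glycosylation. All 4 of its hairpins fell in culture, with log2 changes of -2.07 (TRCN0000093899), -0.71 (TRCN0000093900), -0.44 (TRCN0000093901) and -1.26 (TRCN0000093902). With edgeR, TRCN0000093900 (0.0593) and TRCN0000093901 (0.0557) did not pass there. In lungs they parted. Hairpin TRCN0000093902 held 5.48%, 5.66% and 5.56% at day 0, 2.79%, 1.96% and 2.29% in culture and 1.25%, 0.743% and 0.779% in lungs, each arm apart from the others. It fell 6.21-fold in lungs (log2 change -2.63, SE 0.24, adjusted p = 0.000179), and lungs were below culture (log2 change -1.37, SE 0.33, adjusted p = 0.00586; adjusted p = 0.154 with control reads). Hairpin TRCN0000093899 held 0.458%, 0.433% and 0.412% at day 0 and 0.0658%, 0.135% and 0.201% in lungs. Its fall there (log2 change -1.84, SE 0.51, adjusted p = 0.0236) did not pass with control reads as the denominator (0.0691), with edgeR (0.0543) or without any 1 day 0 library (0.0557 to 0.0661).

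The other Wbscr17 hairpins did not fall in lungs against day 0. Hairpin TRCN0000093901 held 1.51%, 1.46% and 1.34% at day 0, 1.08%, 1.10% and 0.997% in culture and 2.58%, 1.93% and 2.18% in lungs. Lungs were above day 0 and culture below it, with no overlap. It passed as higher in lungs (log2 change 0.62, SE 0.21, adjusted p = 0.0452), although not with DESeq2 size factors (0.0513), with all 3 arms in 1 fit (0.0576), with a replicate block (0.123) or without any 1 day 0 library (0.102 to 0.152), and stood above culture (log2 change 1.06, SE 0.31, adjusted p = 0.0168), although not without culture replicate B or C (0.0662 and 0.0583). Hairpin TRCN0000093900 held 3.68%, 3.73% and 3.62% at day 0, 1.80%, 3.04% and 2.08% in culture and 4.22%, 3.52% and 7.10% in lungs. It was higher in lungs than in culture (log2 change 1.07, SE 0.27, adjusted p = 0.0104), a call lost with a replicate block (0.0993) and without culture replicate C (0.0554), and did not pass against day 0 (0.315).

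Across the 18 genes with at least 2 hairpins in pool 8, hairpins of 1 gene often disagreed. In lungs against day 0 the hairpins of 7 genes were all of 1 sign, Nt5e alone had all of its hairpins called, and Dusp5 and Wbscr17 had hairpins called in both directions. Over all pools, 47.9% of such genes had 1 sign and 12.5% had calls in both directions. In culture against day 0 the hairpins of 8 genes had 1 sign, against 48.1% over all pools. For 4 genes all hairpins passed in 1 direction, namely Nt5e, Ttn and Wbscr17 as lower and Serpinb5 as higher, against 20.3% over all pools. Of these 4 genes, Nt5e alone kept this under every other scaling and count test. Its TRCN0000080814 did not pass with 3 arms in 1 fit (0.0604). In 7 genes (Cdh23, Coro1c, Dusp5, Fyb, Mall, Tnr and Tns4) hairpins were called in both directions, against 24.4%. Between lungs and culture the hairpins of 6 genes had 1 sign, against 43.5%. No gene had all of its hairpins called in 1 direction, against 1.99% over all pools, and Tns4 and Wbscr17 had calls in both, against 5.98%.

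Gene lists made by symbol placed 6 pool 8 hairpins among extracellular matrix and proteases, of which 0 rose and 1 fell in lungs, and 3 rose and 1 fell in culture. Over all pools 3 rose and 8 fell of 34 in that list in lungs, and 13 rose and 15 fell of 38 in culture. The median log2 change of the pool 8 hairpins was -0.07 in lungs and 0.11 in culture, against -0.34 and -0.04 for the same list over all pools. Among adhesion, axon guidance and cadherins, 6 hairpins gave 0 rises and 1 fall in lungs, and 1 rise and 3 falls in culture. Over all pools this list gave 4 rises and 13 falls of 48 in lungs, and 4 rises and 29 falls of 52 in culture. The pool 8 hairpins had medians of -0.18 and -0.56 against -0.95 and -0.88. Other lists held at most 4 pool 8 hairpins each, mostly those of 1 gene.

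For 15 of the 21 genes, 26 further hairpins lay in other pools, read in other mice. The culture values of the 3 genes with a hairpin in pool 9 (Cdh23, Sesn2 and Tns4) came in part from the same culture libraries. In lungs against day 0, 2 of these rose and 5 fell, and in culture against day 0, 3 rose and 11 fell, beside 38.2% and 65.1% of all hairpins called. Between lungs and culture, 2 of 25 were higher and 3 lower in lungs, beside 27.2% called. The higher were Coro1c TRCN0000313282 (log2 change 4.34) and Sesn2 TRCN0000087792 (1.29), whereas the pool 8 hairpins TRCN0000090985 and TRCN0000087791 had been lower. The lower were Tfpi2 TRCN0000284502 (-2.51), whereas TRCN0000080032 had been higher, Nt5e TRCN0000288305 (-2.28), and Tns4 TRCN0000121430 of pool 9 (-4.16, adjusted p = 0.0155), whereas TRCN0000121428 had been higher and TRCN0000121429 lower. A Timeless hairpin of pool 15, TRCN0000234047, fell in culture (log2 change -2.43, adjusted p = 0.00213), and did not pass in lungs (-0.96, adjusted p = 0.143). Another, TRCN0000219102, fell in lungs (log2 change -3.93, adjusted p = 0.0114) and did not pass in culture (-2.29, adjusted p = 0.123). The pool 8 hairpin had fallen in both arms. Sema4b TRCN0000339360 of pool 16 fell in lungs (log2 change -1.07) and in culture (-1.37), and TRCN0000339430 fell in culture (-1.79) and did not pass in lungs (-2.70, adjusted p = 0.173). Both Ttn hairpins of pool 16, TRCN0000362962 and TRCN0000362964, fell in culture (-1.73 and -2.47), and in lungs, where TRCN0000088747 had risen, they were at -2.93 (adjusted p = 0.118) and -2.69 (0.0897). The only other Nt5e hairpin, TRCN0000288305 of pool 17, rose in culture (log2 change 1.78) and did not pass in lungs (-0.49), unlike the 2 in pool 8. Both Coro1c hairpins of pool 18 fell in culture, TRCN0000313282 with a log2 change of -2.58 and TRCN0000313283 with -0.64, whereas TRCN0000090985 had risen, and in lungs the former rose (1.75) and the latter fell (-0.93). Sesn2 TRCN0000340902 of pool 18 fell in culture (-1.34), where TRCN0000087791 had risen, and Sesn2 TRCN0000087792 of pool 9 rose in lungs (1.76). Both Tfpi2 hairpins of pool 15 fell in lungs, TRCN0000284502 with a log2 change of -1.64 and TRCN0000271824 with -0.78, whereas TRCN0000080032 had risen. In culture TRCN0000284502 rose (0.87, adjusted p = 0.00346), as TRCN0000080031 had, and TRCN0000271824 did not pass (-0.14). Tns4 TRCN0000121430 rose in culture (0.68, adjusted p = 0.0336), as TRCN0000121429 had, whereas TRCN0000121427 and TRCN0000121428 had fallen. Kdm5a TRCN0000326191 of pool 16 fell there (-1.95, adjusted p = 9.58e-05), where TRCN0000113534 had risen. Mall TRCN0000442469 (-0.73) and Sema5b TRCN0000442166 (-1.475) of pool 16 also fell there, as TRCN0000100634 and TRCN0000094863 had, whereas Mall TRCN0000100633 had risen. The Dusp5 hairpin of pool 10, TRCN0000080891, did not pass in lungs (-0.29), but lungs replicate C of that pool had only 0.0344% of its reads from pool 10. Of the 2 lung libraries of pool 16, replicate D had 0.677% from its own pool.

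The 8 control hairpins carried by every pool were read beside the members, and 6 of them are described. Summed control reads per pool 8 read were 0.442, 0.433 and 0.434 at day 0 and 0.426, 0.426 and 0.310 in lungs. Lungs were below day 0 in all 3 mice (exact two-sided permutation p = 0.1, the smallest possible), with a log2 difference of -0.19 that was -0.03 without lungs replicate C. In culture the ratio was 0.601, 0.626 and 0.706, where the controls of both pool 8 and pool 9 cells were counted, and 0.279, 0.287 and 0.272 per read of both pools. The controls did not move as 1 group. Per 100 pool 8 reads, the hairpin against Cdkn1b, a cell cycle inhibitor, gave 4.93, 4.91 and 4.51 reads at day 0 and 14.7, 16.8 and 8.23 in lungs, above day 0 in every mouse. Of the 2 non-targeting hairpins, the first overlapped day 0 in lungs (22.5, 18.8 and 12.2 against 13.0, 12.6 and 12.8). The second was lower, at 0.131, 0.0815 and 0.220 against 3.10, 3.11 and 3.22. Its log2 difference of -4.56 was beyond the largest fall of any pool 8 hairpin in lungs (-3.14, Fyb TRCN0000109751). The GFP, MUC1 and PIK3CA hairpins were below day 0 in every mouse, with log2 differences of -0.48, -1.82 and -2.71. In culture, where the controls of pool 9 cells count too, the 2 non-targeting hairpins stood at 1.65 and -1.73 against day 0. Cdkn1b stood there at 1.14, GFP at 0.10, PIK3CA at -0.89 and MUC1 at -1.96.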

How the data were processed

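Hairpins were read by sequencing of PCR products, per the labels' protocols, from genomic DNA of 9 pool 8 libraries (12 samples). The deposited tables give a normalised signal per hairpin, made by the authors. BWA 0.5.9 is named in the submitters' processing notes, and how the signal was counted and scaled is not given in the sources used here. Each value was divided by the smallest value of its library, and 27241 of 27241 values came out whole within 0.01, so reads were recovered. Repeat runs were summed. A hairpin without a row counted as 0 reads.

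Shares are reads over the pool 8 targeting reads of the library. The main test was limma 3.58.1 in R 4.3.3 on log2(CPM + 1), with a variance trend and robust estimation, where CPM is the reads of a hairpin scaled to a common total of targeting reads of the own pool. It was fitted pool by pool on the 2 arms compared, for hairpins with a mean of at least 10 reads, with Benjamini-Hochberg adjustment over all pools and a threshold of 0.05. A fold change given here is therefore one of CPM + 1, so it is too small for hairpins with few reads. Prior degrees of freedom for pool 8 were 4.26, 4.45 and 12.4 in the order lungs against day 0, culture against day 0 and lungs against culture. With 3 libraries an arm, single measures were compared by exact permutation tests. The steps were tested on simulated reads. With equal noise in both arms the share of unchanged hairpins among the calls was near the threshold. With each arm's own spread (lungs noisier than day 0) that share was well above the threshold in the comparisons with lungs. This held for all 3 settings tried (shares, TMM, edgeR). Calls there are, as a set, less certain than their adjusted p. Whether calls near the threshold and calls far from it are affected alike was not tested. Alternatives included TMM factors, edgeR 4.0.16, DESeq2 1.42.0, other pseudocounts and filters, and leaving out each library.

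Hairpins named are those with the 8 highest and 8 lowest changes among the calls of each comparison, the 5 most abundant of each arm, any above 10% of a library, and the other hairpins of the same genes. Sema4b, Sema5b, Ehbp1, Zfp64 and the hairpins of other pools given by name were chosen after their values were seen. The members, gene lists and role groups were chosen with earlier results of these data known. Of 21 genes, 18 were matched to RefSeq (GRCm38.p6) by accession and 3 by symbol, for names only.

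Replicate letters were checked as pairs. Deviations from the arm mean correlated between same-letter libraries at 0.286 to 0.860 for culture and day 0, over the limit of 0.1, but at 0.0367 to 0.0928 without Sema5b TRCN0000094862, a check added after seeing the data. For lungs and day 0 they were -0.0627 to 0.286, but 0.190 to 0.512 without it. For lungs and culture they were -0.0561 to 0.0528, and -0.228 to 0.104 without it. Whether letters pair the libraries of either later arm with day 0 thus rests on 1 hairpin, and the blocked value is given beside each call that it ends.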

Additional observations from a re-analysis of the deposited data

Results flagged for a closer look

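For 4 hairpins the change against day 0 passed in opposite directions in lungs and culture, and lungs against culture passed in the matching direction (limma, Benjamini-Hochberg over all pools). Over all pools this held for 40 of 889 hairpins (4.50%), against 7.69% in pool 8. All comparisons use the same libraries, so the values between lungs and culture are no independent support. Fyb TRCN0000109751 was lower in lungs than in culture by a log2 difference of -4.15 (adjusted p = 3.55e-07) and Tnr TRCN0000110748 by -1.56 (0.000227), both above day 0 in culture and below it in lungs. Ttn TRCN0000088747 was higher in lungs by 1.68 (0.00106) and Wbscr17 TRCN0000093901 by 1.06 (0.0168), both above day 0 in lungs and below it in culture. Of these 4 hairpins, Fyb TRCN0000109751 alone kept all 3 calls under all 20 alternative settings. No other hairpin of these 4 genes passed in opposite directions in the 2 arms.

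Reads of hairpins that belong to neither pool 8 nor, in culture, pool 9 were set apart from all comparisons. They made up 0.187% to 0.245% of reads at day 0 and 0.0771% to 0.136% in culture. Lungs replicate A held 0.966% and replicate C 0.339%, above every day 0 library, while replicate B held 0.0766%. Hairpins of pool 7 were the largest part in replicate A, at 0.605% of reads. Their part in the pool 8 shares was not tested, since shares are taken over pool 8 reads alone.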

How the results depend on the processing

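Counts of calls stayed within 1.5 times the main count with an exception in each comparison, whose cause was not tested. The exceptions were any 1 day 0 library left out in lungs against day 0, and all 3 arms fitted together in culture against day 0. In lungs against culture it was culture replicate C left out. For lungs against day 0 (20 calls) counts ran from 13 to 23 with 1 library left out, 13 for each day 0 library. For culture against day 0 (37) they ran from 34 to 40, and the fit of all 3 arms together gave 23. For lungs against culture (17) they ran from 11 to 24, with 11 without culture replicate C. The replicate block, the letter as a term in the fit, gave 16, 37 and 12 calls (over all pools 300 of 891, 625 of 945 and 220 of 889). In culture against day 0 it kept 35 of the 37, losing Serpinb5 TRCN0000080500 and Sema5b TRCN0000094863 and adding Tnr TRCN0000110745 and Uty TRCN0000095071, and it changed no other call there. In lungs against day 0 it ended 4 calls, Timp1 TRCN0000080039 (0.0869), Wbscr17 TRCN0000093901 (0.123), Uty TRCN0000095072 (0.0578) and Tnr TRCN0000110748 (0.0688). For lungs and day 0, 2 of 3 lung libraries correlated best with their own letter, and for lungs and culture 0 of 3 did. Exact paired sign-flip permutation tests of the effective number and of the control ratio gave p = 0.25 or above, 0.25 being the smallest that 3 pairs allow.

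The lower effective number in lungs and in culture than at day 0 kept its sign in every alternative. With 1 library left out the log2 differences ran from -0.28 to -0.21 in lungs and from -0.19 to -0.18 in culture. Lungs against culture (-0.06) was -0.21 by the inverse Simpson index, turned to 0.010 when hairpins with at least 0.1% of reads were counted and to 0.24 with the 8 controls counted in, and ran from -0.10 to -0.02 with 1 library left out. The control ratio in lungs ran from -0.26 to -0.03, and in culture from 0.49 to 0.61, turning to -0.64 per read of both pools.

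TMM factors moved the median change of pool 8 hairpins by 0.20 against day 0 in both arms. Control reads as the denominator moved it by 0.19 in lungs against day 0, -0.56 in culture against day 0 and 0.75 in lungs against culture. That denominator moves all hairpins alike and in culture counts the controls of pool 9 cells too, so the signs it turned follow from the shift. Of the named calls, 7 values turned their sign, all with control reads (Serpinb5 TRCN0000080500 -0.35, which passed as lower, TRCN0000080502 -0.17 and Tns4 TRCN0000121429 -0.20 in culture, and Serpinb5 TRCN0000080499 0.17, Fyb TRCN0000109754 0.15 and Tns4 TRCN0000121429 0.15 between lungs and culture) or with the deposited values (Serpinb5 TRCN0000080500 -0.14 in culture). Depth limited only the rarest hairpins, 5 of which had under 1000 reads in some library.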
